A study of Mus musculus with 4 samples.

Results

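The DNA replication machinery was followed through 42 genes chosen by name: the origin recognition complex, the factors that load the MCM helicase and switch it on, the helicase itself, the sliding clamp and its loader, the single-strand binding protein, the replicative polymerases and the enzymes that finish the lagging strand. All 42 were present among the 21091 entries of each library, each on an entry of its own, and all 42 reached a mean of 1 FPKM over the 4 libraries, as did 12449 entries in all. FPKM is the number of fragments per kilobase of transcript and per 1000000 mapped fragments, so levels can be set side by side between genes. RNA-seq was carried out on neural progenitors of C57BL/6 mouse embryos taken at embryonic day 11 (E11) or 14 (E14) and grown for 3 days as neurospheres in serum-free medium with EGF and FGF. At each stage there was 1 control library, labelled WT and called CTL here, and 1 library of *Stat3* cKO, in which Cre under a rat Nestin promoter and enhancer removes the floxed exons that encode the SH2 domain of STAT3. The study's animal methods give Nestin-Cre embryos with 1 floxed *Stat3* allele as control, whereas its sequencing methods say wild-type, so whether the CTL libraries carry Cre is not settled by the sources used here. How many embryos went into a library is not stated.

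Before S phase, ORC binds origins of replication, and CDC6 and CDT1 then bring the MCM2-7 helicase onto the DNA, a step called licensing that geminin blocks by binding CDT1. In S phase the kinases CDC7 and CDK turn the loaded helicase on by adding CDC45 and GINS. DNA polymerases alpha, epsilon and delta then copy the strands, held by the PCNA clamp that RFC loads, while RPA coats the exposed single strands and FEN1 and LIG1 join the lagging-strand fragments. Many of these genes are transcribed in late G1 and S phase under E2F factors, and in the embryonic brain they mark cycling progenitors.

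No group had a second library, so no difference has a replicate check, no p-value is given and every comparison below is between single libraries. Where 4 values are given for a gene or ratio without further labels, they stand in the order CTL and *Stat3* cKO at E11, then CTL and *Stat3* cKO at E14. *Stat3* itself, read over the whole gene, was at 7.41, 6.74, 27.6 and 9.55 FPKM. The targeted gene was thus lower in *Stat3* cKO at E14, at 0.346 times CTL, and close to CTL at E11, at 0.911 times. The study describes the deletion in progenitors as reached by E14, so how far *Stat3* was deleted in the E11 *Stat3* cKO library is not known from the sources used here. Sequencing depth cannot be read from these values and is unknown. Summed FPKM lay between 806587 (*Stat3* cKO at E11) and 1461770 (*Stat3* cKO at E14), and the 10 highest entries held 36.0% to 49.9% of it, so comparisons between stages depend on how libraries are scaled. The E14 libraries also differed in sex-linked RNA: Y-linked *Ddx3y* was at 0.0569 FPKM in CTL against 25.1 in *Stat3* cKO, and *Xist*, the RNA of the inactive X chromosome, at 13.6 against 0.0370. At E11 *Ddx3y* was listed at 0 in both libraries and *Xist* had 46.9 (CTL) and 39.7 FPKM (*Stat3* cKO), so sex-linked RNA separates the E14 *Stat3* cKO library from the other 3. In the E14 genotype ratios and in the stage ratios of *Stat3* cKO, this difference and the labelled one cannot be told apart. Of the 42 genes only *Pola1* lies on the X chromosome and none on the Y. All 9 radial glia markers were detected in every library, from 14.6 FPKM for *Pax6* in CTL at E14 to 5929 FPKM for *Fabp7* in *Stat3* cKO at E14. The defining microglial marker *Csf1r* was at 0.538 FPKM or below.

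Promoters were looked at first, since they show a feature that the choice of genes did not use. RefSeq promoters (GRCm38.p6), each from 250 bases before to 50 bases after a transcript start, were available for 34 of the 42 genes. Those of *Gmnn*, *Gins1*, *Gins2*, *Gins4*, *Mcm4*, *Pole*, *Prim2* and *Rfc2* were not used here. The E2F motif was searched as TTTCCCGC, TTTCGCGC, TTTGCCGC or TTTGGCGC on both strands, and some matches overlap each other. It was found in 15 of the 34 genes (44.1%), against 4.87% of 9159 analysed genes with a promoter and 2.61% of all 27025 genes in the table. At least 2 matches stood in 5 of the 34 (14.7%), against 0.240% of the analysed genes. The upstream 250 bases of 6 promoters are printed 5′ to 3′ with every E2F match in capitals. *Mcm6* and *Mcm5* are shown as helicase genes with paired, overlapping matches, *Orc1* and *Cdc6* as genes with the lowest ratios of *Stat3* cKO to CTL at E14, *Pcna* as the most abundant gene, which had no match, and *Orc3* as a gene with a match whose level varied little.
Mcm6, chr1:128359706-128359955, minus strand: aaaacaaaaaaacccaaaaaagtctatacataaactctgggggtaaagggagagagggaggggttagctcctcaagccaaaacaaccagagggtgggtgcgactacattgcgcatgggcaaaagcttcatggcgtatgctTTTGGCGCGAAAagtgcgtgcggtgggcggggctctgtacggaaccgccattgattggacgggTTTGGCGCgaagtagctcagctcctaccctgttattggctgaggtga
Mcm5, chr8:75109259-75109508, plus strand: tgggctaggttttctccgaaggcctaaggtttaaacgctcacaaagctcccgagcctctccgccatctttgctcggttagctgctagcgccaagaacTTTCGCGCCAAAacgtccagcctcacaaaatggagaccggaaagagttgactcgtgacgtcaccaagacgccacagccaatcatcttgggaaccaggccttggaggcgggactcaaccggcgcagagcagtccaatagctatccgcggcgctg
Orc1, chr4:108579204-108579453, plus strand: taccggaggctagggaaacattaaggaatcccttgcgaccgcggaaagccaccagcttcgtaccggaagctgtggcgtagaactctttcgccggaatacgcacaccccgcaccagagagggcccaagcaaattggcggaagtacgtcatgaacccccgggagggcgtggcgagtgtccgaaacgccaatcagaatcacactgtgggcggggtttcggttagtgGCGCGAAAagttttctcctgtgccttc
Cdc6, chr11:98907901-98908150, plus strand: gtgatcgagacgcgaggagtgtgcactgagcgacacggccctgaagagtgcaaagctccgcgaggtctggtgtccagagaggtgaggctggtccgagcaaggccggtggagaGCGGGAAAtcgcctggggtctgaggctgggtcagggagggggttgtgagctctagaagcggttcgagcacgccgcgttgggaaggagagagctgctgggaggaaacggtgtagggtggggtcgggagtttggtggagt
Pcna, chr2:132253181-132253430, minus strand: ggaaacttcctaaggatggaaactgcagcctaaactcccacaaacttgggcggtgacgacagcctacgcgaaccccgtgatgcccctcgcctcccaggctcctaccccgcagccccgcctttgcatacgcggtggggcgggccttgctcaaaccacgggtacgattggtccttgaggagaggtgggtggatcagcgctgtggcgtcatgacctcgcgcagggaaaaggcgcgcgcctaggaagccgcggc
Orc3, chr4:34614943-34615192, minus strand: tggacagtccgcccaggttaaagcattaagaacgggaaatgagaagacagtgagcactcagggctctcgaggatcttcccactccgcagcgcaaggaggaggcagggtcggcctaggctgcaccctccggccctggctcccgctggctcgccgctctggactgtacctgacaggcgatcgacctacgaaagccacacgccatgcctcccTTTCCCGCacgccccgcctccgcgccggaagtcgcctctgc
In *Mcm6* the matches begin 110, 106 and 47 bases before the start, and in *Mcm5* 153 and 149 bases before it. The match of *Orc1* begins 27 bases before the start, that of *Orc3* 41 and that of *Cdc6* 138. A match is a description of the sequence and not a binding site.

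Other motifs divided the genes differently. The CCAAT box (CCAAT) was found in 21 of the 34 genes (61.8%), against 43.7% of the analysed genes. The CHR element (TTTGAA), a motif of late cell cycle promoters, was found in 6 of the 34 (17.6%), against 13.5%. The STAT consensus TTCNNNGAA was found in 5 of the 34 (14.7%: *Cdc45*, *Cdc7*, *Lig1*, *Mcm5* and *Orc4*), against 8.08% of the analysed genes. In a list of G2 and mitosis genes, 1 of 26 had an E2F match, 18 of 26 (69.2%) a CHR match and 20 of 26 (76.9%) a CCAAT box.

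**Figure D1:**
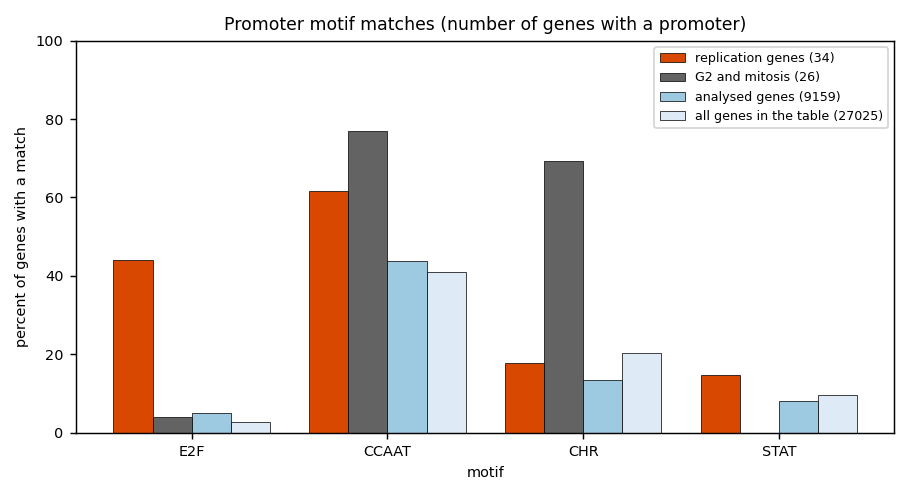
Percent of genes with at least 1 match to each motif on either strand, for replication genes, G2 and mitosis genes, all analysed genes and all genes of the promoter table. The E2F bar is highest for the replication genes (44.1%) and the CHR bar for the G2 and mitosis genes (69.2%).

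Across the machinery the E14 CTL library stood apart. It held the highest of the 4 values for 40 of the 42 genes, whereas 39.3% of all analysed genes were highest there. The exceptions were *Orc3*, highest in E11 CTL, and *Lig1*, highest in E11 *Stat3* cKO. The lowest value was in E11 CTL for 31 genes, in E14 *Stat3* cKO for 10 and in E11 *Stat3* cKO for 1. The share of all genes lowest in each library was not computed, so these counts stand without a comparison. The median level of the 42 genes was 19.2, 24.0, 40.6 and 28.5 FPKM. With each library scaled to the same upper quartile, 35 of the 42 were highest in E14 CTL, against 20.7% of all genes, and with each scaled to the same sum, 17 were, against 14.1%.

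**Figure D2:**
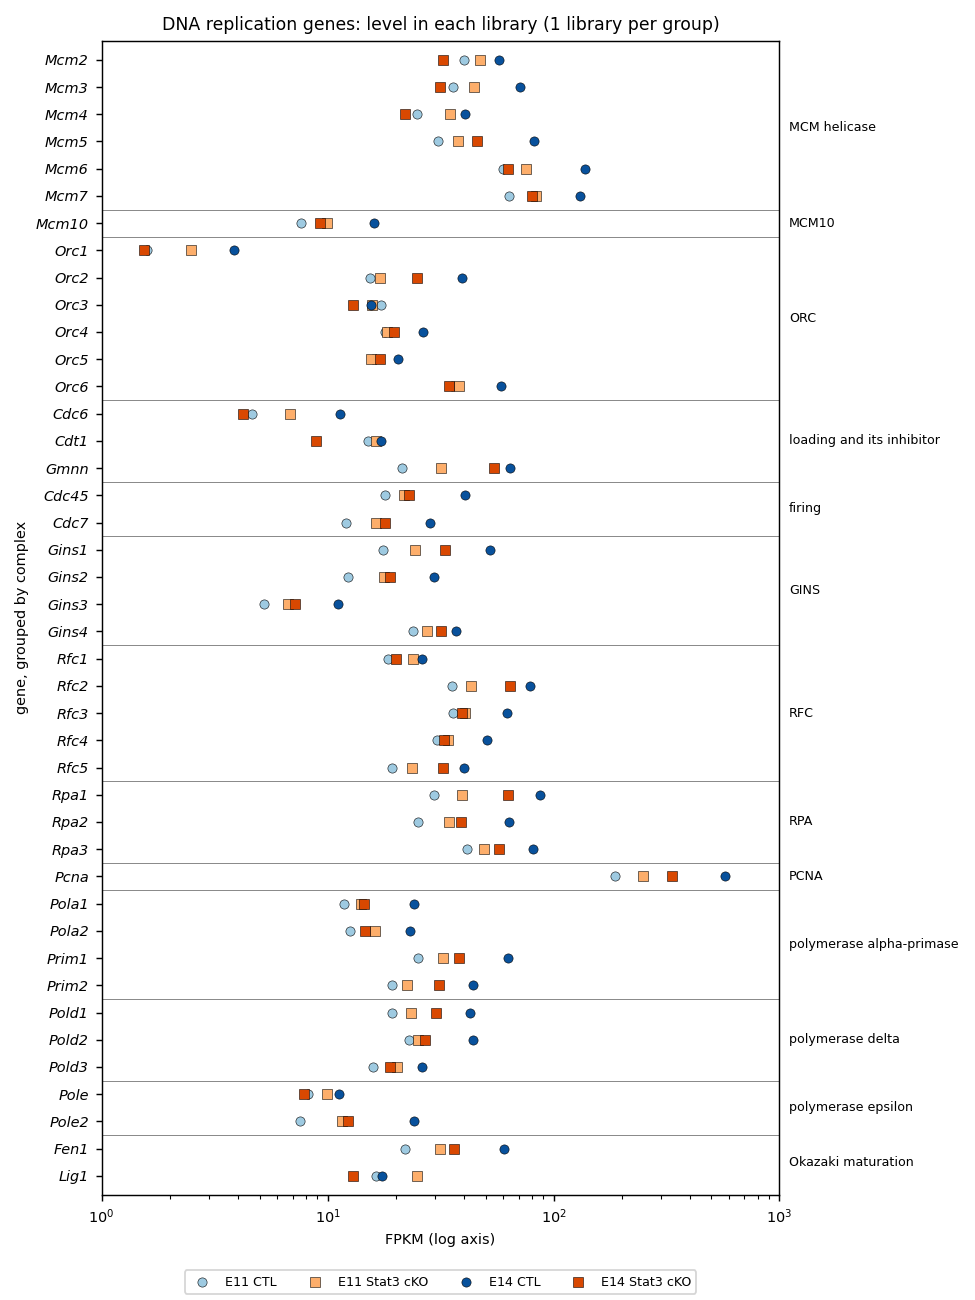
FPKM of each of the 42 genes (log axis) in the 4 libraries, 1 point per library, grouped by complex. E14 CTL is the rightmost point for 40 of the 42 genes, and *Pcna* is the most abundant in every library.

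The first question was how *Stat3* cKO progenitors differed from CTL at E14. All 42 genes were lower in *Stat3* cKO, where 60.1% of all analysed genes were, and they stayed lower under each of the 4 other scalings tried. Their ratio of *Stat3* cKO to CTL ran from 0.373 for *Cdc6* to 0.858 for *Gins4*, and the median log2 ratio was -0.66, against -0.079 for all analysed genes. At least 2-fold lower were 4 genes, *Cdc6*, *Orc1*, *Mcm3* and *Mcm6*, against 1.69% of all genes. None was at least 2-fold higher, against 1.85% of all genes. At least 1.5-fold lower were 27 of the 42, against 7.67% of all genes. The direction was thus shared by all the genes.

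At E11 the direction was the opposite and the size smaller. Of the 42 genes 40 had a higher level in *Stat3* cKO, where 61.8% of all analysed genes were. The other two were *Orc3*, at 0.905 times CTL, and *Orc5*, at 0.985 times. The median log2 ratio was 0.33, against 0.059 for all genes. None was at least 2-fold higher (0.209% of all genes) or lower (1.12%) and the highest ratios were those of *Orc1* (1.57), *Pole2* (1.55) and *Lig1* (1.52). The comparisons at E11 and E14 share no library. Set against the median of all genes, which no scaling alters, the median of the 42 was -0.58 at E14 and 0.27 at E11. Across the 42 genes their log2 ratios had a Spearman's rho of -0.27, against -0.081 over 12419 analysed genes, which is given as a description over genes that are not independent. With centring on the median gene or upper-quartile scaling 39 of the 42 were higher at E11, against 48.0% of all genes with the upper quartile, and with libraries scaled to the same sum all 42 were, against 87.1%.

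**Figure D3:**
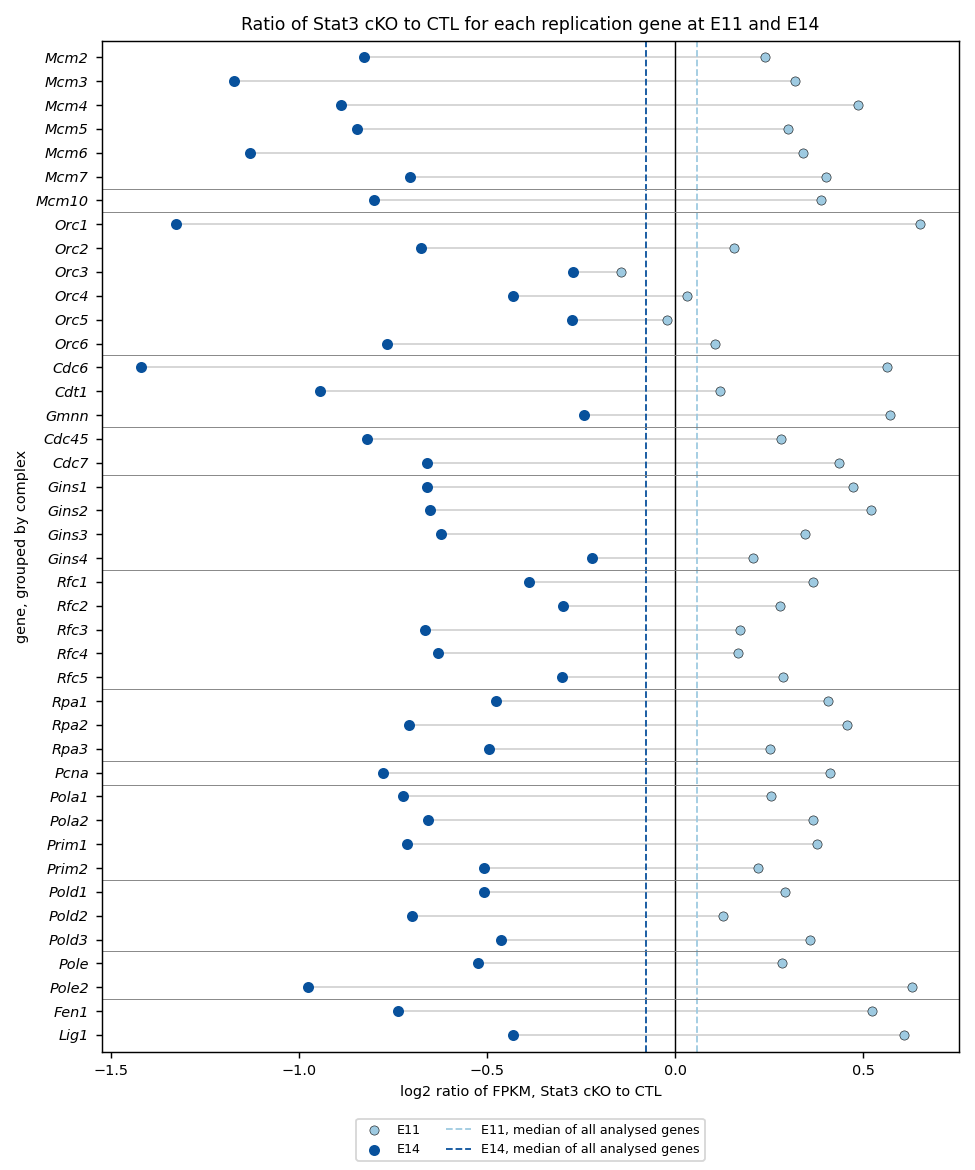
Log2 ratio of FPKM in *Stat3* cKO to CTL for each gene at E11 (light) and E14 (dark), with the median of all analysed genes as a dashed line. All 42 points of E14 lie left of 0 and 40 of the 42 points of E11 lie right of it.

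Development was compared within each genotype, with the same libraries as above used again, so these values are not independent of the genotype ratios. In CTL, 41 of the 42 genes had a higher level at the later stage, as did 7525 of 12430 analysed genes. The median log2 ratio of the 42 was 1.06, against 0.21 for all genes. At least 2-fold higher were 24 (57.1%), against 14.6% of all genes, and none was at least 2-fold lower, against 12.5%. In *Stat3* cKO, 24 of the 42 genes were higher at E14 and 18 lower, where 6627 of 12426 analysed genes were higher and 5799 lower. The median log2 ratio of the 42 was 0.086, against 0.058 for all genes. None of the 42 was at least 2-fold higher, against 10.1% of all genes, or at least 2-fold lower, against 11.7%, and 35 of the 42 (83.3%) lay within 1.5-fold, against 58.3%. The stage ratios moved with the scaling. With upper-quartile scaling the count at least 2-fold higher in CTL was 7, against 7.21% of all genes, and with libraries scaled to the same sum it was 5, against 5.25%. In *Stat3* cKO these scalings gave medians of -0.063 and -0.77. With the sum scaling all 42 genes were lower at E14 in *Stat3* cKO, as were 87.1% of all genes, while 35 were still higher at E14 in CTL, against 31.9% of all genes. The distance of the genes from all others does not depend on the scaling, and was 0.85 in CTL and 0.028 in *Stat3* cKO on the log2 scale.

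Mesenchymal RNA differed between the stages in both genotypes. The 7 mesenchymal markers summed to 1326 FPKM in E11 CTL and 1171 in E11 *Stat3* cKO, against 15.9 and 10.4 at E14, and all 7 were lower at E14 in both genotypes. The 9 radial glia markers summed to 1585 and 1745 FPKM at E11 and to 7519 and 8160 at E14, where *Fabp7* alone had 5245 and 5929. Of the 9, 6 were higher at E14 in each genotype, and *Pax6*, *Hes1* and *Prom1* were lower, *Pax6* at 0.330 times its E11 level in CTL and 0.391 times in *Stat3* cKO. In bulk RNA, fewer cells of a type and less RNA per cell cannot be told apart. The part of cell composition in the stage ratios was not tested. Between genotypes at E14, 7 of the 9 radial glia markers were higher in *Stat3* cKO, and 10 of 11 neuron markers were lower, with sums of 1286 FPKM for CTL and 1061 for *Stat3* cKO. The intermediate progenitor markers summed to 90.0 and 136 FPKM, 3 of 5 being higher, and the oligodendrocyte lineage markers to 562 and 545, 4 of 6 being higher. Microglial markers summed to 0.772 and 0.729 FPKM, with *Aif1* listed at 0 in E14 CTL, and endothelial markers to 1.20 and 1.82. Of 4 erythroid markers 2 were on entries of their own, and they summed to 0.145 and 0.172 FPKM. Of 7 mesenchymal markers, 5 were lower. At E11, 7 of 9 radial glia markers were higher in *Stat3* cKO, 7 of 11 neuron markers were lower, and all 7 microglial markers were lower, with sums of 9.37 FPKM for CTL and 6.37 for *Stat3* cKO. The part of these markers in the genotype ratios was not tested.

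The replicative helicase is a ring of 6 subunits. *Mcm6*, listed on chromosome 1 from 130228167 to 130256233, was at 59.6, 75.5, 138 and 62.8 FPKM. *Mcm3* had 35.8, 44.7, 70.8 and 31.4 FPKM. Both were thus above CTL at E11 and under 0.5 times CTL at E14, at 0.456 and 0.443 times. *Mcm2* had 40.1, 47.3, 57.4 and 32.3 FPKM. *Mcm4* had 24.8, 34.8, 40.6 and 21.9 FPKM. For *Mcm2*, *Mcm3* and *Mcm4* the E14 *Stat3* cKO library was the lowest of all 4, below E11 CTL. *Mcm5* had 30.7, 37.7, 82.2 and 45.8 FPKM. *Mcm7* had 63.2, 83.4, 131 and 80.4 FPKM, the smallest E14 difference of the ring at 0.613 times CTL. The summed level of the 6 genes was 254, 323, 520 and 275 FPKM. The subunits were not in equal proportion. *Mcm7* made up 24.9%, 25.8%, 25.2% and 29.3% of the sum, and *Mcm4* 9.77%, 10.7%, 7.81% and 7.98%. The highest of the 6 was 2.55, 2.40, 3.39 and 3.67 times the lowest. *Mcm10*, which is not part of the ring but acts when the helicase starts to move, had 7.62, 9.96, 16.0 and 9.21 FPKM.

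The 6 subunits of ORC differed in level and in their ratios. *Orc1*, the subunit whose level is known to follow the cell cycle, had 1.58, 2.48, 3.84 and 1.53 FPKM, the lowest levels of the 42 genes. It was highest in E14 CTL and close to its E11 CTL level in *Stat3* cKO at E14, with ratios to CTL of 1.57 at E11 and 0.399 at E14. *Orc2* had 15.4, 17.1, 39.5 and 24.8 FPKM. *Orc6* had 35.6, 38.3, 58.5 and 34.4 FPKM and was the most abundant subunit in every library. The 3 remaining subunits, which form the core of the complex with *Orc2*, had the E14 genotype ratios nearest to 1 within the complex. *Orc3* had 17.3, 15.7, 15.6 and 12.9 FPKM, *Orc4* 17.9, 18.3, 26.5 and 19.7, and *Orc5* 15.8, 15.6, 20.5 and 17.0. Their ratios of *Stat3* cKO to CTL lay from 0.741 to 0.829 at E14 and from 0.905 to 1.02 at E11. Of the 42 genes *Orc3* alone was lower in CTL at the later stage, at 0.900 times. With libraries scaled to the same sum *Mcm2*, *Orc5*, *Cdt1*, *Rfc1*, *Pole* and *Lig1* were lower too. The *Orc3*, *Orc4* and *Orc5* entries list the same span as a neighbouring gene (*Akirin2*, *Acvr2a* and *Gm15421*), so reads from overlapping transcripts may not be separated.

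**Figure D4:**
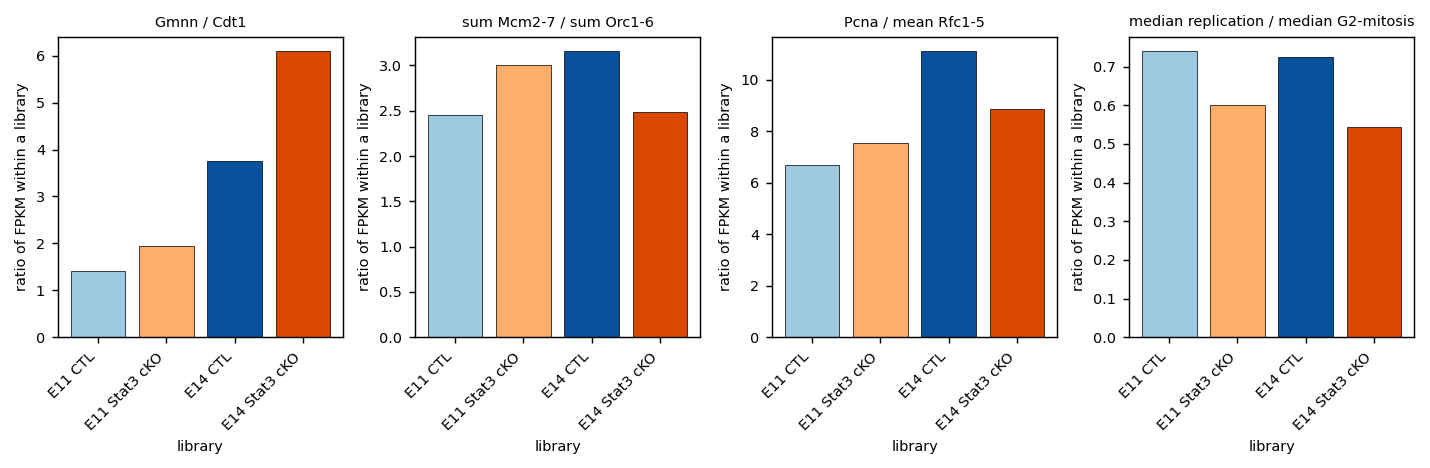
Ratios between replication genes inside each library, which do not depend on how libraries are scaled. Geminin to *Cdt1* was highest in E14 *Stat3* cKO (6.10), MCM to ORC was highest in E14 CTL (3.16), and the level of replication genes relative to G2 and mitosis genes was lowest in E14 *Stat3* cKO (0.543).

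Genes of licensing had unlike ratios. *Cdc6*, listed on chromosome 11 from 98769202 to 98785256, had 4.61, 6.81, 11.4 and 4.24 FPKM. It was 1.48 times CTL at E11 and 0.373 times at E14, the lowest E14 ratio of the 42. *Cdt1* had 15.1, 16.4, 17.2 and 8.93 FPKM. Unlike most of the genes it was nearly level between the stages in CTL, at 1.14 times, a direction that turned with upper-quartile or sum scaling, and it was lower at E14 in *Stat3* cKO, at 0.544 times its E11 level. *Gmnn*, which encodes geminin, had 21.4, 31.8, 64.3 and 54.4 FPKM, and at E14 it was 0.846 times CTL. Of these 3 genes the inhibitor of licensing thus had the E14 ratio nearest to 1. Inside each library the ratio of *Gmnn* to *Cdt1* was 1.42, 1.94, 3.74 and 6.10, a quantity that no scaling changes. These are transcript levels, and both proteins are also controlled by degradation. Summed MCM over summed ORC was 2.46, 3.01, 3.16 and 2.49.

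Genes that turn the helicase on were also highest in E14 CTL. *Cdc7*, the catalytic subunit of the kinase that fires origins, had 12.1, 16.3, 28.3 and 17.9 FPKM. *Cdc45* had 18.0, 21.8, 40.5 and 23.0 FPKM. In both, E14 *Stat3* cKO lay close to E11 *Stat3* cKO, at 1.10 and 1.05 times. This closeness depends on the scaling: with libraries scaled to the same sum the log2 ratios were -0.72 and -0.78. The GINS tetramer split into 3 genes and 1. *Gins1* had 17.5, 24.3, 52.2 and 33.0 FPKM, *Gins2* 12.4, 17.7, 29.7 and 18.9, and *Gins3* 5.26, 6.67, 11.1 and 7.20. Their E14 ratios to CTL were 0.633, 0.636 and 0.650. *Gins4* had 23.9, 27.5, 37.1 and 31.9 FPKM, with an E14 ratio of 0.858, the nearest to 1 of the 42 genes. *Gins2* lists the same span as *Gse1*.

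*Pcna*, the clamp, was the most abundant of the genes and is listed on chromosome 2 from 132075021 to 132078916. Its level was 187, 249, 575 and 336 FPKM. Its E14 level was 3.07 times its E11 level among CTL libraries and 1.35 times among *Stat3* cKO libraries. With libraries scaled to the same sum, the log2 ratios were 1.06 in CTL and -0.43 in *Stat3* cKO. Pseudogene copies of *Pcna* are annotated in the mouse genome, so some of its reads may be shared. Its share of the summed level of the 42 genes was 17.0%, 18.1%, 23.6% and 22.1%. The clamp loader differed less between genotypes. *Rfc2* had 35.5, 43.0, 79.0 and 64.3 FPKM, *Rfc5* 19.4, 23.6, 40.1 and 32.6, and *Rfc1* 18.4, 23.8, 26.2 and 20.0. Their E14 ratios were 0.814, 0.812 and 0.764, whereas those of *Rfc3* and *Rfc4* were 0.631 and 0.646. *Rfc3* had 35.8, 40.4, 62.5 and 39.5 FPKM. *Rfc4* had 30.5, 34.2, 50.7 and 32.8 FPKM, on a span also listed for *Eif4a2*. *Pcna* over the mean of the 5 loader genes was 6.71, 7.55, 11.1 and 8.88. The RPA trimer was likewise highest in E14 CTL. *Rpa1* had 29.7, 39.4, 87.4 and 62.8 FPKM, *Rpa2* 25.2, 34.5, 63.6 and 38.9, and *Rpa3* 41.5, 49.5, 80.9 and 57.4. The E14 ratios were 0.719, 0.612 and 0.710, and all 3 were lowest in E11 CTL.

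The 9 genes of the replicative polymerases, part of the 42, were all lower in *Stat3* cKO at E14, as were 60.1% of all analysed genes. The median log2 ratio of the 9 was -0.66, against -0.079 for all analysed genes. The polymerase alpha and primase complex, which lays down primers, had like ratios in its 4 subunits. *Prim1* had 25.1, 32.6, 62.7 and 38.2 FPKM, and *Prim2* 19.3, 22.4, 44.1 and 31.0. *Pola1* had 11.8, 14.1, 24.0 and 14.6 FPKM, and *Pola2* 12.6, 16.2, 23.2 and 14.7. Their E14 ratios lay from 0.605 for *Pola1* to 0.703 for *Prim2*. Polymerase delta, which copies the lagging strand, had ratios from 0.616 to 0.725. *Pold1* had 19.2, 23.5, 42.8 and 30.1 FPKM, *Pold2* 22.9, 25.0, 43.9 and 27.0, and *Pold3* 15.9, 20.4, 26.1 and 19.0. *Pold2* lists the same span as *Aebp1*, which had 14.3 FPKM in E11 CTL and 0.588 in E14 *Stat3* cKO. In polymerase epsilon, which copies the leading strand, the subunits parted. The catalytic *Pole* had 8.17, 9.94, 11.3 and 7.84 FPKM and the accessory *Pole2* 7.52, 11.6, 24.2 and 12.3. *Pole2* in CTL at E14 was 3.22 times its E11 level, the largest stage ratio of the 42 genes, against 1.38 times for *Pole*. *Pole2* over *Pole* was 0.920, 1.17, 2.14 and 1.57.

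The enzymes of lagging-strand joining also parted. *Fen1*, the flap nuclease, had 21.9, 31.6, 60.6 and 36.4 FPKM and followed the common pattern. *Lig1*, the replicative ligase, had 16.3, 24.9, 17.4 and 12.9 FPKM, so its peak was in E11 *Stat3* cKO and its lowest value in E14 *Stat3* cKO, at 0.518 times the E11 level. With each library scaled to the same sum or upper quartile, *Lig1* in CTL was lower at E14 than at E11. Its listed span is shared with *6330408A02Rik*, which was at 3.40 FPKM or below in all 4 libraries. *Fen1* over *Lig1* was 1.34, 1.27, 3.49 and 2.82.

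Genes with an E2F match had genotype ratios close to those of genes without one. At E14 the 15 genes with a match had a median *Stat3* cKO to CTL ratio of -0.72 on the log2 scale, and the 19 without had -0.67. At E11 these medians were 0.34 and 0.29. From E11 to E14 in CTL both were 1.05, and in *Stat3* cKO they were -0.10 and 0.12, the second turning negative with upper-quartile or sum scaling. *Cdc6*, *Orc1*, *Mcm3* and *Mcm6*, the genes at least 2-fold lower at E14, all had a match, and so did *Orc3*.

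Neighbouring parts of the cell cycle were read from lists of other genes. A list of 31 further replication genes included origin firing, checkpoint, RNase H2, clamp unloading and chromatin assembly factors. Of these, 28 were lower in *Stat3* cKO at E14 (median log2 ratio -0.47), where 60.1% of all analysed genes were. At E11, 27 were higher, with a median of 0.32, where 61.8% of all analysed genes were. At least 2-fold lower at E14 were *Dna2*, a nuclease and helicase, from 7.63 to 3.75 FPKM, and *Chaf1b*, a histone chaperone of the fork, from 32.6 to 14.8 FPKM. Of all analysed genes 1.69% were at least 2-fold lower there. *Pold4*, an accessory subunit of polymerase delta, and *Rnaseh2b* and *Rnaseh2c*, subunits of a nuclease that removes ribonucleotides from DNA, were above CTL, at 1.26, 1.11 and 1.04 times. All 12 genes of dNTP supply were lower at E14, beside the same 60.1% of all analysed genes, with a median of -0.59. *Dctd*, the dCMP deaminase, was at 6.35, 5.87, 13.7 and 5.92 FPKM. Of 22 genes of E2F, RB and cyclin E, 18 were lower at E14, again beside 60.1% of all analysed genes, with a median of -0.51. The largest differences were those of the cyclins that drive entry into S phase: *Ccne2* had 4.95, 8.38, 18.6 and 6.32 FPKM, and *Ccne1* 9.50, 14.8, 19.6 and 8.99.

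G2 and mitosis genes had E14 ratios around 1. Of 30 such genes, 16 were above CTL at E14 and 14 below, where 60.1% of all analysed genes were below. The median *Stat3* cKO to CTL ratio of the 30 was 0.015 on the log2 scale. That median was 0.17 with upper-quartile scaling and -0.054 with the sum, so its sign depends on the scaling. Of the 30 genes only *Mybl2* was at least 1.5-fold lower, against 7.67% of all genes. All 30 exceeded CTL at E11, as did 61.8% of all analysed genes, and the median of the 30 there was 0.55. *Cdk1*, the mitotic kinase, had 29.6, 43.2, 111 and 84.4 FPKM. *Ccnb1*, its cyclin partner, had 73.9, 106, 206 and 200 FPKM. The median replication gene was 0.740, 0.602, 0.725 and 0.543 times the median G2 and mitosis gene. It was thus lower in *Stat3* cKO at both stages. In 13 DNA polymerases and ligases that act in repair, translesion synthesis or mitochondria, the E14 median was -0.19 and none was at least 1.5-fold lower, a count near the 7.67% of all genes. Whether the lists differ from the replication genes was not tested, since each comparison rests on single libraries.

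**Figure D5:**
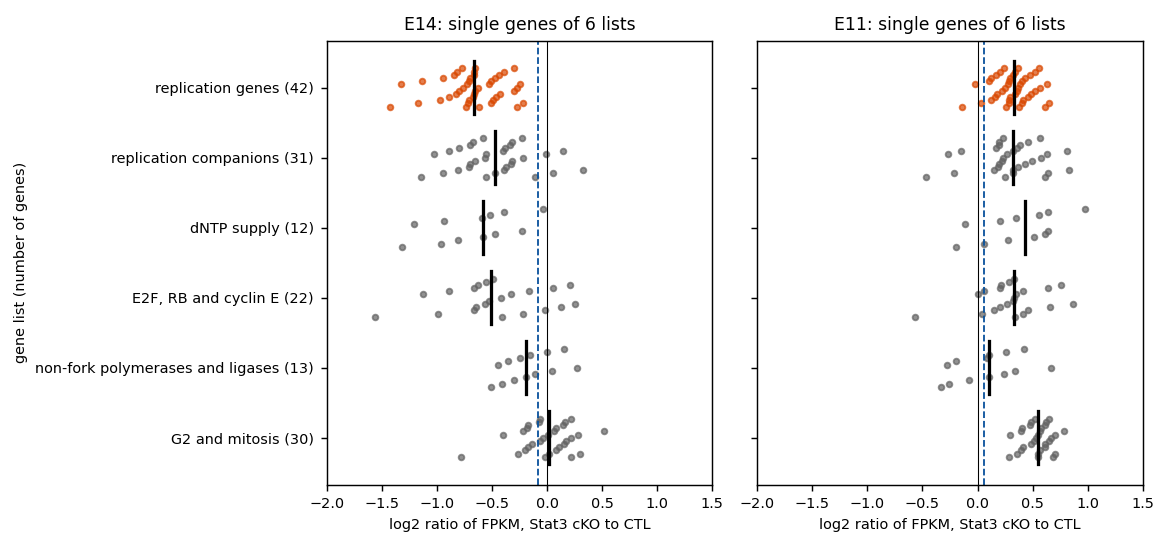
Log2 ratio of FPKM in *Stat3* cKO to CTL for single genes of 6 lists at E14 (left) and E11 (right), with the median of each list as a black bar and that of all analysed genes as a dashed line. At E14 the replication genes have a median of -0.66 and the G2 and mitosis genes of 0.015, and at E11 both lie above 0.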

How the data were processed

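The authors checked reads with FastQC, processed them by the Tuxedo workflow (TopHat and Cufflinks) and deposited FPKM values, 1 per entry and library. The submitters' processing notes also name Bowtie 0.12.2 and the builds mm8 and mm9, without roles. The annotation is not given in the sources used here, so coordinates stand as listed. Any scaling between libraries is not stated.

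Values were used as deposited. Ratios were taken without a pseudocount over entries with a mean of at least 1 FPKM, and a value of 0 gave no ratio. Genes were counted from a 2-fold ratio. With 1 library per group no test was run. The 42 genes, 5 comparison lists and 8 marker lists were chosen with earlier results of these data known. All 42 genes are named. Genes of comparison lists are named from a 2-fold ratio, though not every such gene is reported here, and *Pold4* and *Mybl2* were named after their values were seen. *Supt16h*, *Poln* and *Foxm1* had no entry of their own. Of 42 spans listed, 7 are shared with another entry. Promoters came from RefSeq (GRCm38.p6), the highest motif count being taken where a gene has several. Computations, tested on simulated data, used Python 3.11.15, numpy 2.4.6, pandas 2.3.3, scipy 1.17.1 and matplotlib 3.10.9. Alternatives were pseudocounts of 0.1 and 1, 4 other scalings, a minimum of 5 FPKM or none, and thresholds of 1.5 and 3.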

Additional observations from a re-analysis of the deposited data

Results flagged for a closer look

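The replication genes differed between genotypes in opposite directions at the 2 stages. Relative to CTL, their median on the log2 scale was -0.66 in *Stat3* cKO at E14 but 0.33 at E11. Both lower at E14 and higher at E11 were 40 of the 42 genes. Of all analysed genes 60.1% were lower at E14 and 61.8% higher at E11, and the share with both was not computed. By at least 1.5-fold at each stage the opposite directions held for *Orc1*, with log2 ratios of -1.33 at E14 and 0.65 at E11. They also held for *Pole2*, with -0.98 and 0.63. Of all analysed genes 7.67% were at least 1.5-fold lower at E14 and 2.18% at least 1.5-fold higher at E11, and the share with both was again not computed. *Stat3* itself was 0.346 times CTL at E14 and 0.911 times at E11, and how far it was deleted in the E11 *Stat3* cKO library is not known from the sources used here. Each stage has 1 library per genotype, and the difference between stages was not tested.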

How the results depend on the processing

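All 42 genes were lower in *Stat3* cKO at E14 under every scaling tried. Their median log2 ratio there was -0.51 with upper-quartile scaling, and the count at least 2-fold lower (4) was 27 at a threshold of 1.5 (7.67% of all genes) and 0 at 3 (0.418%). At E11 the median was 0.56 with libraries scaled to a sum of 1000000, and 3 genes (2.18% of all genes) passed a threshold of 1.5. From E11 to E14 in CTL the median (1.06) was 0.85 with libraries centred on the median gene, 0.69 with upper-quartile scaling, 0.51 with the sum and 0.535 with the sum without the 10 highest entries, a scaling added after the data were seen. The count at least 2-fold higher (24) was 14, 7, 5 and 5 in the same order, against 9.73%, 7.21%, 5.25% and 5.49% of all genes, and 3 at a threshold of 3 (4.99% of all genes). In *Stat3* cKO the median (0.086) turned to -0.063, -0.77 and -0.42 with the last 3 scalings, and the count at least 2-fold lower (0) was 1, 2, 12 and 7, against 12.4%, 13.7%, 38.7% and 22.8% of all genes. At a threshold of 1.5, 2 genes were higher and 5 lower, against 21.6% and 20.1% of all genes. The shifts between scalings follow from the scale factors, whereas the counts at other thresholds involved no rescaling. Pseudocounts and the minimum on the mean moved no median by over 0.1 and no count by over 1.5 times. No paired analysis was possible because each group has 1 library. The number of fragments is unknown, so no counting error can be set beside *Orc1*, the lowest gene.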
